A study of Drosophila melanogaster with 6 samples.

Results

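The wild-type (WT) embryo transcriptome of *Drosophila melanogaster* was described gene by gene from the 3 samples labelled Embryo WT, of 6 samples in the series. The samples were taken by their genotype label alone, and no measured value was used to choose them. Each is a bulk RNA-seq library of whole embryos of genotype wild type, for which the methods name Oregon R as the strain, and the other 3 samples, of the *Raf926* genotype, were not compared here. Flies laid eggs on grape juice agar, the embryos of all stages on the plate were harvested together, and their total RNA was extracted after the chorion was removed with bleach. The sample labels give a longer laying period at a warmer temperature than the methods do, so the age range of the embryos is not settled. The replicates are called biological replicates, and nothing states whether they came from separate cages or days.

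A *Drosophila* embryo starts on RNA loaded into the egg by its mother. Its own genome is switched on around cellularization, when nuclei of the syncytium are enclosed by membranes, and gap, pair-rule and segment polarity genes then divide the body into segments. Muscle, nerve, gut and trachea differentiate later, and the epidermis finally secretes the cuticle of the larva. A collection of mixed stages holds all of these programmes side by side, weighted by how many embryos are in each. In bulk RNA, fewer cells of a type and less RNA per cell cannot be told apart.

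The deposited expected counts summed to between 34774771 and 38120428 per WT replicate. The mitochondrial large ribosomal RNA took 7.28, 6.88 and 6.1% of the counts in replicates 1, 2 and 3 and was left out of what follows. Levels are given as TPM-like values, the expected count divided by the gene length in the same table and scaled so that the 16554 genes kept sum to 1000000. A gene of 1000 bases with 3 counts, taken as the floor, would have between 0.137 and 0.149 TPM-like. Levels per gene are means ± SD over 3 replicates unless single values are given. All 3 samples are one group, so no comparison between groups and no p-value is reported. PCR reads without molecular identifiers were counted, and any error from depth alone covers counting error only.

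Of the 16554 genes kept, 10046 (60.7%) reached 1 TPM-like in every WT replicate and are called detected. They held 99.8% of all TPM-like. Detection was common among protein-coding genes, with 9734 of 13827 (70.4%), and uncommon among non-coding RNA genes, with 276 of 2439 (11.3%), and pseudogenes, with 36 of 288 (12.5%). The shares of 60.7% of all genes kept and 70.4% of protein-coding genes are the background for the counts of detected genes in each list. The median detected gene stood at 26.8, 27.2 and 28.9 TPM-like in replicates 1, 2 and 3. At higher levels the number of genes dropped quickly, with 7030 at 10 TPM-like or more in every replicate, 1378 at 100 or more and 123 at 1000 or more. The 123 genes of the top class carried 43.3% of all TPM-like. The 10 most abundant genes of each replicate held 9.14, 8.29 and 7.78% in replicates 1, 2 and 3, the 100 most abundant 40.5, 39.9 and 39.5%, and the 1000 most abundant 69.4, 69.1 and 68.1%. Replicate 1 was the most concentrated at each of these ranks and replicate 3 the least, and the curves of all 3 replicates lay close together.

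**Figure D1:**
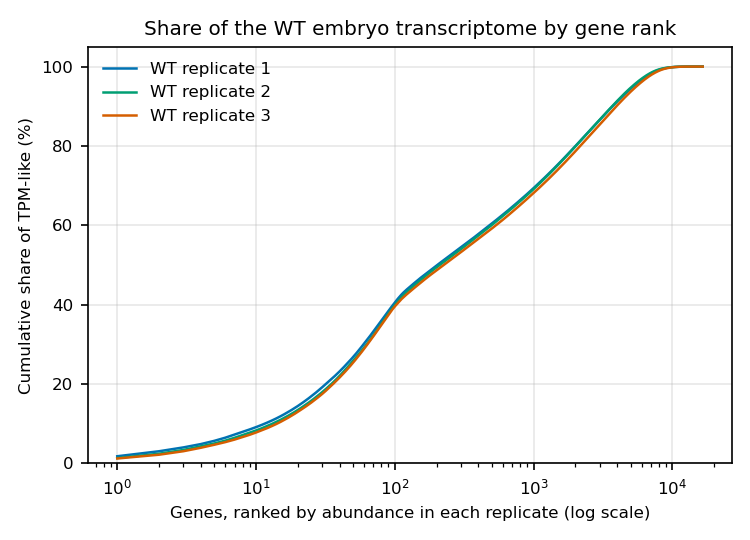
Cumulative share of TPM-like (y axis, percent) against the rank of genes by abundance within each replicate (x axis, log scale), one line per WT replicate. The 3 lines reach 7.78 to 9.14% at rank 10 and 68.1 to 69.4% at rank 1000.

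The most abundant messages were those that build and run the ribosome. Among the 30 genes with the highest mean, 24 encode cytoplasmic ribosomal proteins, 4 are encoded by the mitochondrial genome, and the remaining 2 were *eEF1alpha1*, the elongation factor that brings aminoacyl-tRNA to the ribosome, and *Df31*, a chromatin protein. Together the ribosomal proteins summed to 311083, 306947 and 311986 TPM-like in replicates 1, 2 and 3, which is 31.0 ± 0.269% of the transcriptome (SD, n = 3). Of 88 listed genes, 86 were detected. The paralog *RpS28a* had 3 counts or fewer in every replicate, while *RpS28b* reached 4323 ± 156 TPM-like.

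*RpL41*, which encodes a very short protein of the large subunit, ranked first at 17988, 13457 and 12320 TPM-like in replicates 1, 2 and 3. It also varied most among the 30, with a coefficient of variation of 20.6%, and its level rests on a gene length of only 320 bases. *RpL27A* (7289 ± 260), *RpS23* (7062 ± 763), *RpS16* (5750 ± 91.0) and *RpL36* (5732 ± 155) followed. *RpS7*, *RpS3A*, *RpS15*, *RpL10*, *RpS25*, *RpL5* and *RpL19* lay between 5049 and 5558 TPM-like. The next ones, *RpS13*, *RpL15*, *RpL29*, *RpL21*, *RpL23*, *RpL35*, *RpS26*, *RpLP1*, *RpS18*, *RpS27A* and *RpS28b*, lay between 4323 and 4905 TPM-like. Within this family most neighbours in the order differed by less than their spread.

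The translation factors were led by *eEF1alpha1* (8749 ± 376 TPM-like), *eEF5* (4035 ± 155), which helps the ribosome past proline stretches, and the translocase *eEF2* (3241 ± 143). Of 54 listed, 46 were detected, and they summed to 32506 ± 547 TPM-like. The 4 members with 3 counts or fewer in every replicate, *eIF4E4*, *eIF4E7*, *eIF3d2* and *eIF3g2*, are paralogs of general initiation factors. Mitochondrial ribosomal proteins were far lower. All 74 were detected, with a sum of 4961 ± 59.7 TPM-like, led by *mRpS7* (150 ± 14.1), *mRpL30* (138 ± 9.39) and *mRpL12* (132 ± 7.2).

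Transcripts of the mitochondrial genome came second to the ribosomal proteins. *mt:CoIII* and *mt:CoI*, subunits of cytochrome c oxidase, had 11010 ± 1531 and 9293 ± 569 TPM-like, *mt:Cyt-b*, of the cytochrome bc1 complex, had 7250 ± 658, and *mt:CoII* had 7205 ± 880. The mitochondrially encoded genes summed to 53208, 47335 and 42998 TPM-like in replicates 1, 2 and 3, or 4.78 ± 0.512% of the total. All 12 of those that could be compared between replicates were highest in replicate 1, and 11 were lowest in replicate 3. The shares of all genes highest or lowest there are not given. The excluded mitochondrial large ribosomal RNA ran in the same order, and its part in the other values was not tested.

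Nuclear genes of oxidative phosphorylation summed to 17970 ± 493 TPM-like, with 71 of 94 detected, led by *ATPsynC* (958 ± 146), *ND-MLRQ* (869 ± 110) and *ATPsynbeta* (858 ± 40.9). A further 16 of the 94 had 3 counts or fewer in every replicate, among them *ATPsynCF6L*, *ND-24L*, *COX6AL* and *SdhCL*, whose names mark them as paralogs of the subunits in general use. The proteasome showed the same division. It had 34 of 48 members detected (70.8%, near the 70.4% of protein-coding genes) and a sum of 4923 ± 465 TPM-like. It was led by *Prosalpha7* (231 ± 38.7), *Prosbeta7* (228 ± 15.9) and the ATPase *Rpt6* (222 ± 27.9). Its 9 paralogs at 3 counts or fewer included *Prosalpha6T*, *Prosalpha3T* and *Prosbeta5R1*. Of the vacuolar ATPase, the proton pump of acidic compartments, 22 of 32 genes (68.8%) were detected, led by *Vha16-1* (628 ± 92.6), *Vha26* (365 ± 40.3) and *Vha13* (313 ± 61.1).

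The highest genes outside translation and mitochondria had varied roles. They were picked after their values were seen, as the highest that no translation or mitochondrial list held. *Df31* had 4649 ± 691 TPM-like, *Tctp*, a growth-linked protein, 3507 ± 328, and *alphaTub84B* and *betaTub56D*, which form microtubules, 3361 ± 280 and 2705 ± 303. *HmgD*, a high mobility group protein of embryonic chromatin, had 2578 ± 258, the cytoplasmic actin *Act5C* 2540 ± 61.0, and the constitutive chaperone *Hsc70-4* 2230 ± 276. *Bacc* had 2450 ± 219, *Rack1*, a scaffold bound to the ribosome, 2365 ± 181, and *14-3-3epsilon*, an adaptor for phosphorylated proteins, 1892 ± 141. The actin regulators *tsr* (cofilin) and *chic* (profilin) had 1902 ± 221 and 1465 ± 90.2. *CG4440* and *CG13427*, which carry only a CG number, stood among them at 1781 ± 453 and 1281 ± 351.

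Of 6034 genes named by a CG number alone, 3441 were detected, and they held 12.4, 12.1 and 12.9% of TPM-like in replicates 1, 2 and 3. Their median when detected was 18.3 TPM-like, below that of all protein-coding genes at 29.0.

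Cell division was strongly represented. All 16 genes of mitosis were detected, with a sum of 4601 ± 558 TPM-like, led by the cyclins *CycB* (954 ± 96.2), *CycA* (662 ± 101) and *CycB3* (465 ± 45.3). All 15 genes of DNA replication were detected too, with a sum of 2756 ± 475, led by *geminin* (518 ± 32.1), which holds back relicensing of origins, *PCNA* (369 ± 88.8), the sliding clamp, and the helicase subunit *Mcm7* (345 ± 43.2). The 6 histone variants summed to 6381 ± 629 TPM-like, with *His2Av* at 1875 ± 244, *His3.3B* at 1726 ± 139 and *His4r* at 1613 ± 144. Of 111 replication-coupled histone genes, whose mRNAs lack a poly(A) tail, 3 were detected, 105 had 3 counts or fewer in every replicate, and all together summed to 7.52 ± 1.46 TPM-like. They are near-identical repeats, so reads could be split among copies, which does not touch the sum over reads that were assigned. Any reads left unassigned are missing from that sum, and why it was low was not tested.

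Among chaperones, 18 of 25 genes were detected. *Hsp83* (366 ± 108) and *Hsc70-3* (334 ± 26.7) followed *Hsc70-4*. The heat-inducible *Hsp70Aa* had no counts, and *Hsp70Ba* had 1.25, 1.22 and 0.684 TPM-like in replicates 1, 2 and 3, so neither gene was detected in every replicate. No sum over the *Hsp70* genes was taken. Glycolysis had all 12 genes detected and a sum of 1363 ± 226 TPM-like, led by *Ald1* (314 ± 74.8), *Eno* (205 ± 25.4) and *Gapdh2* (180 ± 30.3). Septate junction genes, which seal epithelia, had 15 of 15 detected, led by *Lac* (327 ± 26.1), *Atpalpha* (267 ± 52.2) and *crok* (183 ± 14.5).

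Every embryonic programme listed was present. The 22 maternal and germ plasm genes were all detected and summed to 1047 ± 202 TPM-like. They were led by *smg* (327 ± 32.5), the RNA-binding protein that clears maternal messages, *twe* (96.7 ± 12.9), a Cdc25 phosphatase, and *gcl* (67.5 ± 4.68), which is needed for primordial germ cells. The 13 early zygotic and cellularization genes summed to 502 ± 159, led by *slam* (81.8 ± 17.3), *halo* (80.0 ± 26.9) and *Z600* (66.8 ± 25.5).

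Patterning genes were in the same range. The 15 gap and pair-rule genes summed to 496 ± 70.7 TPM-like, led by *slp1* (77.0 ± 18.6), *Kr* (60.2 ± 8.87) and *hb* (52.9 ± 7.24). The 17 dorsal-ventral and gastrulation genes summed to 445 ± 60.5, with the mesoderm determinants *sna* (72.03 ± 8.04) and *twi* (52.4 ± 15.3) ahead of *Doc1* (39.8 ± 8.64). The 9 segment polarity genes summed to 357 ± 53.9, led by *nkd* (85.2 ± 11.7), *ptc* (79.2 ± 13.1) and *gsb* (46.5 ± 9.43). All of these 41 genes were detected.

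The Hox genes, which give segments their identity, were ordered with the trunk genes on top. *abd-A* had 49.2 ± 8.59 TPM-like, *Ubx* 45.9 ± 4.43, *Antp* 44.7 ± 3.75, *Abd-B* 36.3 ± 4.55 and *Scr* 27.3 ± 2.62. The head genes were lower, with *Dfd* at 14.2 ± 1.11, *lab* at 5.99 ± 1.06 and *pb* at 4.0 ± 0.661. The first 3 overlapped within their spread, and the steps from *Scr* to *Dfd* and from *Dfd* to *lab* exceeded it.

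Nervous tissue was seen at its stem cell and its mature stage. The 15 neuroblast genes summed to 843 ± 115 TPM-like, led by *mira* (212 ± 45.8), an adaptor for unequal division, the proneural *l(1)sc* (86.7 ± 18.4) and *nerfin-1* (73.6 ± 7.15). The 17 genes of differentiated neurons, all detected, summed to 367 ± 81.9, led by the pan-neuronal RNA-binding proteins *elav* (116 ± 12.4) and *fne* (49.3 ± 9.77) and the syntaxin *Syx1A* (40.9 ± 0.818). Glia had 9 of 9 genes detected, with *nrv2* (183 ± 15.8), *Gs2* (82.9 ± 23.0) and *loco* (58.1 ± 6.6) on top. The glial determinant *gcm* had 39.9 ± 3.44 and the glial marker *repo* 14.1 ± 3.74 TPM-like.

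Muscle gave the largest sum of any tissue list. The 18 sarcomere genes summed to 7359 ± 2269 TPM-like, or 0.736% of the transcriptome, about the level of the tubulins (6463 ± 580). *Act57B*, a larval muscle actin, had 1894, 1458 and 2660 TPM-like in replicates 1, 2 and 3, and tropomyosin *Tm1* and troponin T *up* had 814 ± 134 and 656 ± 224. The earlier mesoderm and myoblast genes, 14 of 14 detected, summed to 429 ± 42.9, led by *Mef2* (88.3 ± 8.03), the muscle transcription factor, *mbc* (66.1 ± 6.14) and *stumps* (60.8 ± 8.62).

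Tracheal genes, 8 of 8 detected, were led by the chitin deacetylases *verm* (227 ± 67.3) and *serp* (112 ± 33.0) and by *Gasp* (134 ± 35.9), which also stand in the chitin matrix list. The salivary gland had 6 of 6 genes detected, with the transcription factors *fkh* (67.3 ± 9.62) and *CrebA* (50.8 ± 7.34) above *PH4alphaSG2* (18.0 ± 4.11). In the hemocyte list 10 of 14 were detected, led by *Col4a1* (162 ± 52.8), *vkg* (89.2 ± 32.2) and *Ppn* (68.2 ± 19.6). The undetected ones were *NimC1*, *Hml*, *lz* and *eater*, of which *eater* had 0.120, 0.0300 and 0.248 TPM-like in replicates 1, 2 and 3. *NimC1*, *Hml* and *eater* are blood cell genes best known from larvae. In the fat body list *apolpp*, the lipophorin precursor, had 294 ± 72.9 and *Adh* 120 ± 47.4, whereas the larval serum protein genes *Lsp1alpha* and *Lsp1beta*, and also *Fbp2*, had 3 counts or fewer in every replicate.

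The cuticle and gut programmes of the late embryo had high summed levels. Of 99 CPR cuticle protein genes, named for the Rebers and Riddiford chitin-binding motif, 59 (59.6%) were detected. That share was near the 60.7% of all genes kept and below the 70.4% of protein-coding genes. All together the CPR genes summed to 4346 ± 1266 TPM-like. *Lcp65Ag1* (683 ± 179), *Cpr65Ax2* (674 ± 143) and *Lcp65Ag2* (612 ± 164) led, and 11 members, such as *Lcp3*, *Cpr30B*, *Cpr50Ca* and *Cpr72Eb*, had 3 counts or fewer. *Lcp65Ag1* and *Lcp65Ag2* are near-identical copies, and how reads divided between them is uncertain.

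Tweedle genes, another cuticle family, had 19 of 26 detected, led by *TwdlM* (425 ± 197), *TwdlN* (306 ± 131) and *TwdlD* (165 ± 73.5), with *TwdlJ* at the floor. The Osiris genes, clustered insect genes of cuticle-secreting tissue, had 14 of 23 detected (60.9%, near the 60.7% of all genes kept). They were led by *Osi6* (631 ± 310), *Osi7* (273 ± 115) and *Osi15* (152 ± 65.3), while *Osi1*, *Osi8*, *Osi11*, *Osi22* and *Osi23* were at the floor. Among midgut digestive enzymes 39 of 47 were detected, led by the Jonah serine proteases *Jon25Biii* (214 ± 119), *Jon99Cii* (93.0 ± 79.4) and *Jon99Ciii* (73.5 ± 64.0). *Mal-A7* was at the floor.

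Further lists had smaller sums. The 11 genes of the shavenbaby and denticle list, which shape apical hairs, were led by *sn* (152 ± 11.2), *dyl* (58.5 ± 20.1) and *tyn* (55.5 ± 23.8). In that list 9 of 11 genes were highest in replicate 3, whereas *sn* and *ovo* were lowest there. The 11 tanning genes were led by *Vajk2* (96.6 ± 28.2), *Vajk3* (85.3 ± 30.9) and *Vajk4* (62.6 ± 23.9). Ecdysone synthesis had 5 of 6 genes detected, led by *spo* (22.4 ± 6.59), *dib* (15.8 ± 2.23) and *phtm* (13.3 ± 3.0). *spok*, the paralog of *spo* used in the larva, had 0.754, 0.589 and 1.34 TPM-like in replicates 1, 2 and 3. Basement membrane genes, all 9 detected, were led by the laminins *LanB1* (189 ± 28.1), *LanA* (183 ± 28.3) and *LanB2* (169 ± 26.6).

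Genes of other stages and organs marked the lower end. No eggshell gene of 19, no glue gene of 22 and no testis or seminal fluid gene of the 43 kept was detected. Of the 19, 22 and 45 genes listed, 9, 19 and 34 had 3 counts or fewer in every replicate. The summed levels were 6.59 ± 0.389, 0.943 ± 0.347 and 4.18 ± 1.05 TPM-like. The chorion genes *Cp36*, *Cp16* and *Cp19* and the glue genes *Sgs3* and *Sgs5* were at the floor. Of the yolk proteins, *Yp1* and *Yp2* stayed below 0.262 TPM-like in every replicate and *Yp3* had 1.76 ± 0.524.

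Adult muscle and eye genes were low, and a few were detected. In the adult muscle list 1 of 5 was detected, *TpnC41C* at 1.9 ± 0.57 TPM-like. In the adult photoreceptor list 3 of 9 were, *Rh4*, the arrestin *Arr1* (1.89 ± 0.668) and the channel *trpl* (1.51 ± 0.325). *Act88F* and *fln*, of the flight muscle, had 0.123 ± 0.0945 and 0.166 ± 0.107 TPM-like, against 2004 for *Act57B*. The rhodopsin *ninaE* had 0.128 ± 0.117 and *Rh3* and *trp* were at the floor. *Rh4* had 6.04 ± 1.03, but its gene overlaps *sina* on the opposite strand, which had 4280 counts or more in every replicate, and the counting is not described as using strand. The same holds for *TpnC4* (1.46 ± 0.679), which overlaps *Ugt50B3*.

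**Figure D2:**
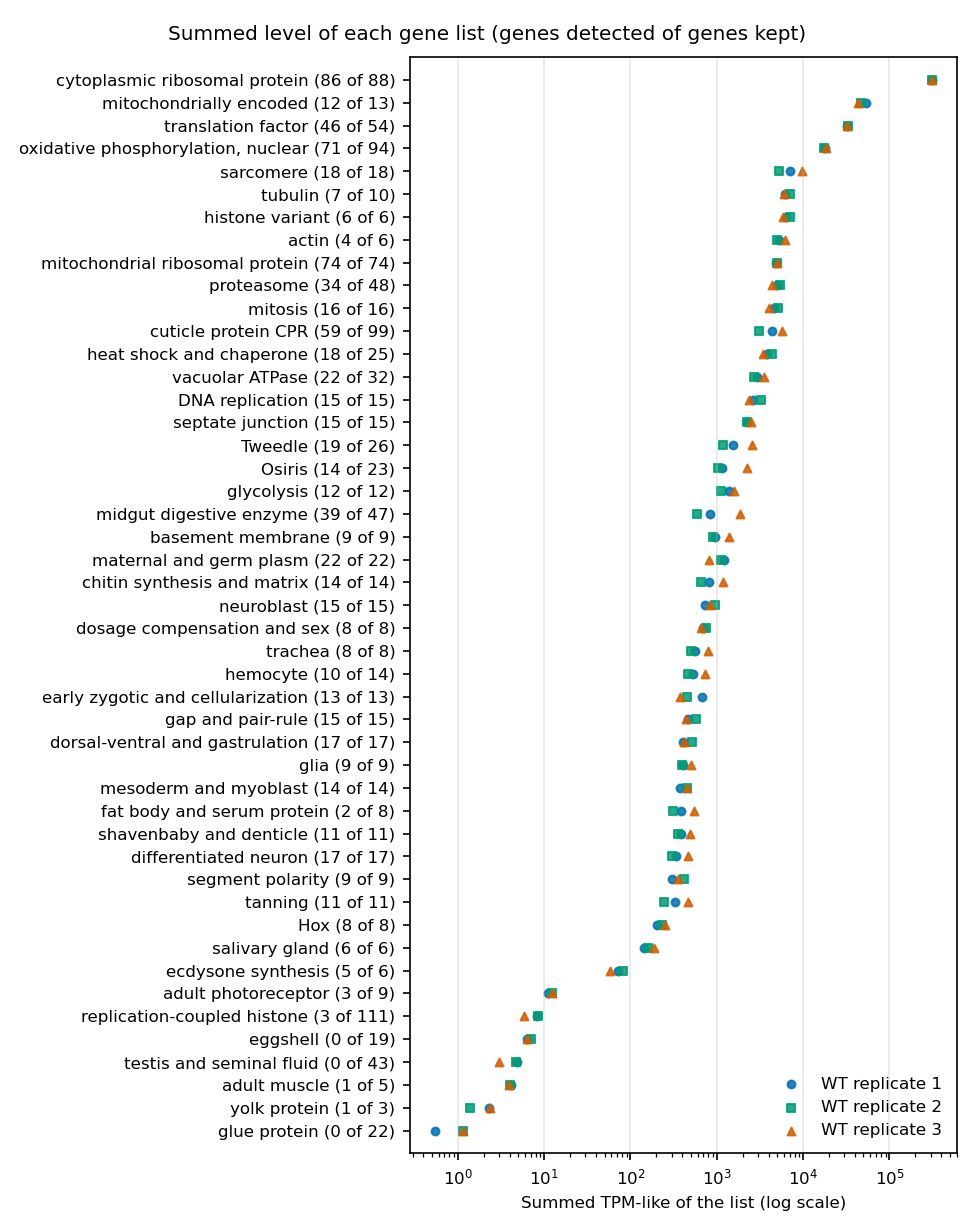
Summed TPM-like of each of 47 gene lists (x axis, log scale) in the 3 WT replicates (points), ordered by mean, with genes detected of genes kept in brackets. Ribosomal proteins sit at 306947 or more, sarcomere genes between 5282 and 9780, and the lists of adult, ovarian, testis and glue genes at 12.3 or less.

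Non-coding RNA genes held 0.391 to 0.395% of TPM-like. The highest were *lncRNA:CR42862* (528 ± 73.1) and *lncRNA:marge* (450 ± 15.9), followed by *lncRNA:roX1* (215 ± 19.4) and *lncRNA:Hsromega* (156 ± 8.74). *lncRNA:roX1* and *lncRNA:roX2* are the RNAs of the dosage compensation complex that coats the male X chromosome, and *lncRNA:roX2* had 15.3 ± 1.83. *lncRNA:roX1* overlaps *ec* on the opposite strand, which had 5825 counts or more in every replicate, so its level is open to the same doubt as that of *Rh4*. *Sxl*, the master gene of female identity, had 201 ± 15.9 and *msl-1*, a subunit of the complex, 85.7 ± 6.83 TPM-like.

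By chromosome, the share of TPM-like was 18.4 to 18.6% for 2L, 22.5 to 23.3% for 2R, 16.1 to 16.8% for 3L, 21.8 to 22.5% for 3R and 13.9 to 14.3% for X. On the small chromosome 4, 87 of 108 genes (80.6%) were detected, with a median of 40.0 TPM-like among those detected, against 25.96 to 29.6 for the larger arms. Of 110 Y-linked genes, a single gene was detected, *FDY*, at 4.79 ± 1.21 TPM-like. Near-identical genes could share reads, and whether the reads of *FDY* came from a similar gene elsewhere was not tested.

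The replicates were alike in the ranking of genes. Across 11453 genes with a mean of at least 10 counts, Spearman's rho was 0.993 between replicates 1 and 2, 0.986 between 1 and 3 and 0.977 between 2 and 3, given as a description across genes, which are not independent. The SD of the log2 ratio was 0.34, 0.45 and 0.59 for the same pairs. The chi-square per degree of freedom was 28.5, 51.3 and 80.5, well above the value of 1 of pure counting noise, so no library repeated another. The common biological coefficient of variation from edgeR was 0.239. It was 0.154 over replicates 1 and 2 alone.

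For differences between replicates, counts were scaled by edgeR's TMM factors to counts per 1000000 reads counted (CPM), and a gene was counted when a replicate differed by over 1.5-fold from both others. Replicate 3 exceeded both others at 1195 genes (10.4%) and lay below both at 344 (3%). Replicate 2 exceeded both others at 147 genes (1.28%) and lay below both at 959 (8.37%). Replicate 1 had 141 (1.23%) and 136 (1.19%). Few genes thus set replicate 1 apart, and replicates 2 and 3 stood on either side of it.

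The differences between replicates varied from list to list. Counts of members highest or lowest in a replicate have no share over all genes beside them, so they are descriptions only. Over all genes the median log2 difference was -0.03, 0.02 and -0.04 in replicates 1, 2 and 3. Replicate 3 was lowest in the maternal list. There 14 of 22 genes were below both other replicates by over 1.5-fold, against 3% of all genes, and the median log2 difference from the mean of the other replicates was -1.03, against -0.04 over all genes. The oocyte tubulin *alphaTub67C* had 18.3, 21.9 and 2.65 TPM-like in replicates 1, 2 and 3, and *osk*, which assembles the germ plasm, had 21.6, 27.5 and 4.19. Replicates 1 and 2 lay together at both genes, with replicate 3 far below. *pgc*, a germ plasm gene that silences transcription in pole cells, had 57.2, 57.2 and 14.9, and *nanos*, a posterior determinant, 19.2, 22.3 and 8.22.

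Other maternal genes barely moved. *smg* had 364, 314 and 303 TPM-like in replicates 1, 2 and 3, *gcl* had 71.1, 69.2 and 62.2, and *tud*, a germ plasm scaffold, had 39.1, 43.3 and 49.1, the only member highest in replicate 3. On the CPM scale, the ratio of replicate 3 to the mean of the others ran from 0.123 to 1.11 over the 22 genes. Further ovarian genes outside the list, chosen after their values were seen, had wide gaps too. The thioredoxin *dhd* had 207, 216 and 40.4 TPM-like, the yolk receptor *yl* 16.2, 20.5 and 2.48, the ovarian gamma-tubulin *gammaTub37C* 5.87, 7.37 and 0.719, and the small heat shock protein *Hsp26* 99.6, 129 and 23.0.

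Replicate 1 was highest in the early zygotic list, at 9 of 13 genes by over 1.5-fold against 1.23% of all genes. The list summed to 680, 448 and 376 TPM-like in replicates 1, 2 and 3. *nullo*, which stabilizes the furrows of cellularization, had 16.1, 6.04 and 4.52, *bnk*, which keeps those furrows from closing early, 61.1, 28.3 and 25.8, and the insulator factor *Elba3* 59.5, 26.3 and 20.5. At these genes replicate 1 stood alone and the other replicates lay near each other. *slam*, the most abundant member, had 102, 70.2 and 73.4. All 13 genes were lowest in replicate 3 on the CPM scale and 12 were highest in replicate 1, the exception being *sisA*, an X-chromosome counting gene that was highest in replicate 2.

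Replicate 2 was highest in the patterning lists, by small margins. It led at 14 of 15 gap and pair-rule genes, 16 of 17 dorsal-ventral genes and 9 of 9 segment polarity genes. The median log2 differences of these lists were 0.34, 0.31 and 0.38, against 0.02 over all genes. Only 2 of these 41 genes passed 1.5-fold, against 1.28% of all genes. *twi* had 45.0, 69.9 and 42.2 TPM-like in replicates 1, 2 and 3, *slp1* 67.6, 98.4 and 64.9, and *en*, which marks posterior compartments, 29.3, 44.3 and 38.6. The neuroblast list was highest in replicate 2 at 11 of 15 genes, with *mira* at 167, 259 and 209.

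Proliferation genes were ordered alike. All 15 DNA replication genes and all 16 mitosis genes were highest in replicate 2 and lowest in replicate 3, with median log2 differences for replicate 2 of 0.49 and 0.36 and for replicate 3 of -0.44 and -0.36. *PCNA* had 344, 467 and 295 TPM-like in replicates 1, 2 and 3, and *RnrS*, a ribonucleotide reductase subunit, 315, 432 and 227. A single gene of these 31 was over 1.5-fold higher in replicate 2, against 1.28% of all genes, and none was lower in replicate 3 by that margin, against 3%. The Hox genes had medians from -0.19 to 0.11, with all 8 lowest in replicate 1 on the CPM scale and none past 1.5-fold.

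Replicate 3 was highest and replicate 2 lowest in the summed levels of the digestive and cuticle lists. Among digestive enzymes, 38 of 43 measured genes were higher in replicate 3 than in both others by over 1.5-fold, against 10.4% of all genes, and 19 were lower in replicate 2, against 8.37%. Of the 38, 4 reached the minimum of 10 counts on average only through replicate 3. The list summed to 836, 583 and 1859 TPM-like in replicates 1, 2 and 3, and its mean was 709 without replicate 3 and 1093 with it. *Jon99Cii* had 57.5, 37.6 and 184, and the trypsin *deltaTry* 22.0, 19.0 and 91.6. Jonah proteases and trypsins are close paralogs in clusters, so single values are less certain than the sum. *Mal-A5*, a maltase, was an exception at 24.9, 25.1 and 15.6.

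The cuticle lists behaved likewise. The Osiris genes summed to 1155, 1028 and 2215 TPM-like in replicates 1, 2 and 3, and 11 of 15 were over 1.5-fold higher in replicate 3, against 10.4% of all genes, with *Osi6* at 479, 425 and 987. The Tweedle genes summed to 1548, 1180 and 2523, with 8 of 22 past 1.5-fold in replicate 3 and *TwdlM* at 360, 269 and 646. The CPR genes summed to 4326, 3090 and 5622, and here 16 of 69 were higher in replicate 3, of which 4 reached 10 counts on average only through it, and 26 of 69 were lower in replicate 2, against 8.37% of all genes. *Lcp65Ag1* had 715, 489 and 844. All 11 tanning genes and all 14 chitin synthesis and matrix genes were highest in replicate 3, although only 2 of 11 and 1 of 14 passed 1.5-fold, near the share of all genes. Ecdysone synthesis ran the other way, with sums of 71.3, 82.4 and 57.9 TPM-like in replicates 1, 2 and 3, 4 of 6 genes highest in replicate 2 and 5 lowest in replicate 3.

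Muscle and neurons had the same order. All 18 sarcomere genes were highest in replicate 3 and 17 were lowest in replicate 2, with sums of 7015, 5282 and 9780 TPM-like in replicates 1, 2 and 3, and 5 were over 1.5-fold higher in replicate 3, against 10.4% of all genes. Myosin heavy chain *Mhc* had 272, 217 and 444. Of the 17 neuronal genes 15 were highest in replicate 3, with 5 past 1.5-fold, against the same 10.4%. *nSyb*, a synaptic vesicle protein, had 25.5, 20.5 and 47.0, while *elav*, which is on from the birth of a neuron, had 102, 118 and 127. Glial, mesodermal and salivary gland genes moved less, with medians between -0.23 and 0.23.

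Ribosomal protein and nuclear oxidative phosphorylation genes were nearly level. The median log2 difference of the ribosomal proteins was 0.02, 0.03 and -0.09 in replicates 1, 2 and 3, and its sign depended on the scaling in each replicate. That of the nuclear oxidative phosphorylation genes lay between -0.05 and 0.01, and its sign depended on the scaling in replicates 1 and 3. Some other housekeeping lists moved more. Proteasome genes had medians of 0.27 and -0.31 in replicates 2 and 3, glycolysis -0.31 and 0.22, and the vacuolar ATPase -0.22 and 0.23. Mitochondrially encoded genes had 0.31 in replicate 1 and -0.32 in replicate 3. The directions given above for the maternal, early zygotic, gap and pair-rule, dorsal-ventral, digestive, Osiris, Tweedle, sarcomere, neuronal, replication and mitosis lists kept their sign under all 4 scalings tried. For CPR genes that held in replicates 2 and 3, and for segment polarity genes in replicates 1 and 2.

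**Figure D3:**
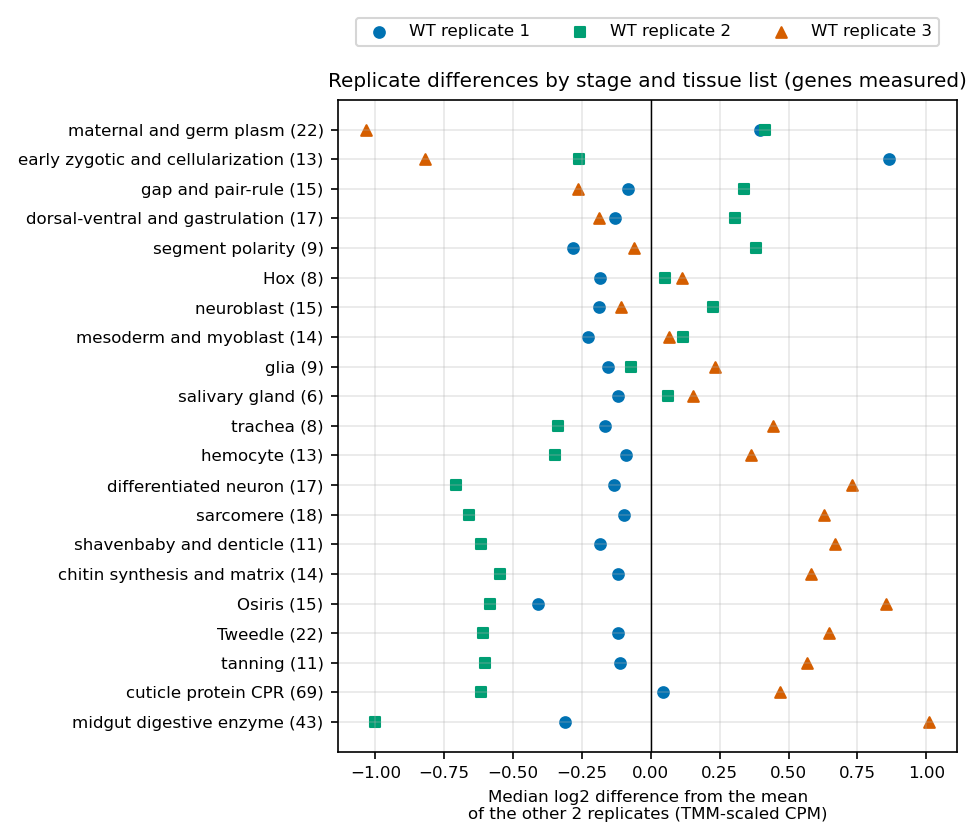
Median log2 difference of each WT replicate from the mean of the other 2 (x axis, TMM-scaled CPM) over the genes of each stage and tissue list (y axis, early programmes above, number of genes in brackets). Replicate 3 runs from -1.03 in the maternal list to 1.01 among digestive enzymes and replicate 2 reaches -1.0 there, while replicate 1 stands out at 0.87 in the early zygotic list.

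Ratios of list sums differed as well. The digestive enzyme sum was 0.698, 0.517 and 2.27 times the maternal sum in replicates 1, 2 and 3. The CPR cuticle sum was 6.36, 6.89 and 14.9 times the early zygotic sum. Replicate 3 had the highest of both ratios, and no list was scored or tested to place a replicate on a time axis.

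**Figure D4:**
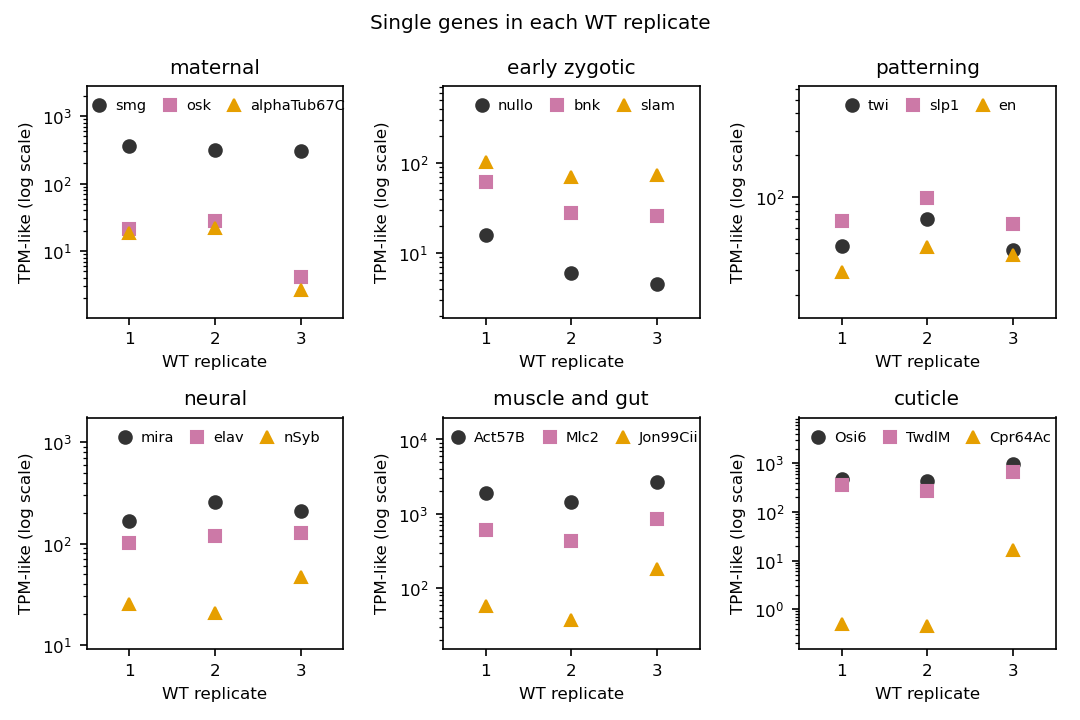
TPM-like (y axis, log scale) of 18 single genes in the 3 WT replicates (x axis), in 6 panels from maternal to cuticle genes. Replicate 3 is low at *osk* (4.19) and *alphaTub67C* (2.65) but not at *smg* (303), and high at *nSyb* (47.0), *Jon99Cii* (184) and *Cpr64Ac* (16.3). *Cpr64Ac* is the most extreme CPR gene and entered the comparison only through its count in replicate 3. Its CPM in replicate 3 is 32.2 times the mean of the other replicates, against a median of 1.49 over the CPR list.

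A few genes differed between replicates far beyond the lists. With counts raised to a floor of 3, 29 of the 11453 genes (0.253%) were over 10-fold higher in replicate 3 than in both others, and 6 (0.0524%) over 10-fold lower. Replicate 2 was that far above both others at 2 genes (0.0175%) and below at 3 (0.0262%), and replicate 1 above at 2 (0.0175%) and below at 0. Of the 29, 25 reached 10 counts on average only through replicate 3. *CG14421* had 0, 3 and 2621 counts in replicates 1, 2 and 3, and *CG14418* 0, 0 and 389, at least 111-fold higher in replicate 3 against the floor per library. The cuticle gene *Cpr64Ac* had 9, 8 and 319 counts, or 0.499, 0.446 and 16.3 TPM-like. In replicates 1 and 2 these genes were at or near zero, which follows in part from choosing them by that difference.

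*CG14421* and *CG14418* were neighbours of others with the same pattern. Both lie within the span of *kirre* on the X chromosome (BDGP6.54, 2740384 to 3134532), an immunoglobulin-domain gene for myoblast fusion whose introns hold many genes. Of 21 protein-coding genes within that span, 16 were compared and 9 were over 10-fold higher in replicate 3, against 0.253% of all genes compared. The span was picked after these values were seen, so its contrast with all genes follows in part from that choice. All of the 9 but *CG32793* reached 10 counts on average only through replicate 3. Besides those named they were *CG14417* (1, 0 and 44 counts in replicates 1, 2 and 3), *CG14424* (7, 1 and 544), *CG32793* (12, 11 and 1140), *CG3598* (1, 0 and 334), *CG14420* (2, 2 and 224), *CG14423* (6, 3 and 515) and *CG4116* (2, 0 and 79).

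*CG14422*, between *CG14421* and *CG14423*, had 0, 2 and 35 counts and fell just short. All 9 were at 12 counts or fewer in replicates 1 and 2, which follows in part from choosing genes far higher in replicate 3. *kirre* itself had 692, 505 and 693 counts, and its neighbour *rst*, another gene of cell recognition, 2582, 2839 and 3285. *CG3588*, in the midst of the cluster, had 2153, 1404 and 3499, so some genes there were on in every replicate. The annotation gives the 9 genes only CG numbers, and no role is stated for them.

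**Figure D5:**
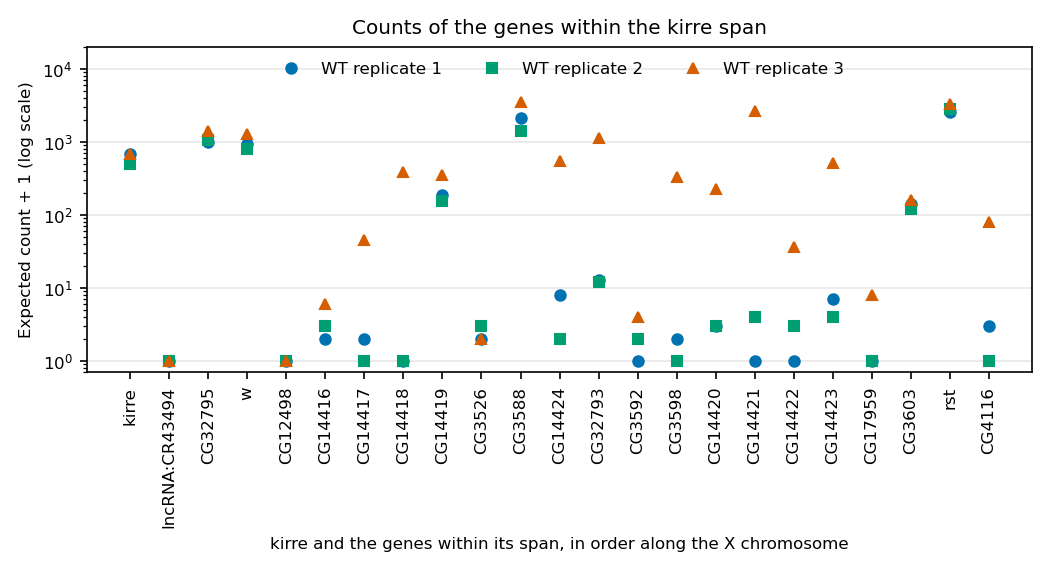
Expected count plus 1 (y axis, log scale) of *kirre* and the genes within its span in the 3 WT replicates, in order along the X chromosome (x axis). At 9 genes replicate 3 has between 44 and 2621 counts and the others 12 or fewer, while *kirre* and *rst* have 505 or more in every replicate.

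A further 5 of the 29 genes lay on 2R between 20750914 and 20793795. *CG34201* had 1, 2 and 261 counts in replicates 1, 2 and 3, *CG34202* 5, 5 and 454, *CG13443* 0, 0 and 50, *CG43666* 2, 1 and 120, and *CG15225* 0, 0 and 315. All 5 were close to zero outside replicate 3. These genes were picked out because their positions lie close together, after their values were seen, and other genes between these positions are not given.

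Some opposite differences balanced within pairs of genes. *CG33502* had 3.26, 0.73 and 1615 expected counts in replicates 1, 2 and 3, while *CG32857*, its neighbour a few kilobases away on X, had 1219, 1250 and 0.56. Their sums were 1222, 1251 and 1616 counts, or 38.1, 39.3 and 43.3 CPM, which differ by 1.14-fold at most. *CG18542* and *CG32939* on 3R had 21.6, 1292 and 0 counts and 1251, 3.54 and 1077 counts, with sums of 39.7, 40.7 and 28.9 CPM. So each gene of these pairs differed by far over 10-fold and each sum by less than 1.5-fold. RSEM divides reads that match several genes, and counts that are not whole show that it did so here. Whether a pair member was switched on cannot be told from these counts. *CG32500*, of the same X cluster as *CG33502*, had 167, 355 and 68.1 counts and is open to the same doubt.

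Sums of *Cyp6a19* and of *BicC* with a relative or neighbour did not balance. *Cyp6a19*, a cytochrome P450 gene, had 511, 436 and 18 counts in replicates 1, 2 and 3, and its close relative *Cyp6a9* 89.0, 47.0 and 127. Their sums still differed by 4.81-fold. *BicC*, a maternal RNA-binding protein, and *CG45084* share their span and summed to 2246, 2680 and 202 counts, 15.5-fold from the highest to the lowest in CPM. *CG4476* had 194, 187 and 10 counts, and no partner was looked for.

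In replicate 2, *mt:ND6* had 17 counts against 275 and 225 in replicates 1 and 3, whereas the sum of all mitochondrially encoded genes differed by far less. *Bbd*, which the Bomanin immune peptides need for their action, had 72 counts in replicate 2 against 270 and 320 in replicates 1 and 3. Bomanin genes named after their values were seen ran alike, with *BomS3* at 41.5 TPM-like in replicate 2 against 149 and 155 in replicates 1 and 3. *sro*, a gene of ecdysone synthesis, was highest in replicate 2 at 6.83 TPM-like, against 3.51 and 3.04.

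In replicate 1, the largest margins above both others were at *28SrRNA-Psi:CR40741*, a ribosomal pseudogene (295, 73.8 and 54.3 counts in replicates 1, 2 and 3), *CG18269* (318, 109 and 61) and *nullo* (276, 103 and 84). Below both others it had *CG12522* (7, 13 and 407), which entered the ranking only through its count in replicate 3, *asRNA:CR45800* (91.1, 198 and 171) and *CG46244* (61.0, 96.4 and 215). *asRNA:CR45800* is annotated as antisense, and without strand its reads cannot be told from those of its partner.

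Replicates also differed in the isoforms behind a few genes. The deposited length of a gene is weighted by its isoforms in that sample. Of 6391 genes with at least 500 counts in every replicate, the length differed by over 1.1-fold between replicates at 44 and by over 1.25-fold at 2. *PsGEF*, a guanine nucleotide exchange factor, had 4707, 4028 and 5442 bases in replicates 1, 2 and 3, *mei-P26*, a germline translational regulator, 8493, 7763 and 9525, and *dnc*, the cAMP phosphodiesterase, 5058, 4367 and 5358. At all 3 the length was shortest in replicate 2 and longest in replicate 3. Other large differences ran the opposite way, longest in replicate 2 and shortest in replicate 3. *CG34310* had 1529, 1621 and 1274 bases in replicates 1, 2 and 3, and *CG45069* 639, 717 and 582. These genes were picked from the largest differences, and no isoform table was analysed.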

How the data were processed

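RNA of WT embryos was sequenced in 3 samples. The authors aligned the reads to BDGP6.22 (Ensembl 97) with STAR 2.7.1a and deposited, for each gene, the expected counts estimated by RSEM 1.3.1, an isoform-weighted length and TPM. The deposited TPM was used only as an alternative. Of 17714 identifiers, 17587 matched the later annotation BDGP6.54 (Ensembl 115), which gave names, biotypes and coordinates. The unmatched 127 held 0.983 to 1.01% of counts.

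TPM-like values were computed from expected count and length over protein-coding, non-coding and pseudogenes of at least 200 bases. Replicates were compared on rounded counts without rRNA, snoRNA and snRNA genes, scaled by TMM (edgeR 4.0.16, R 4.3.3), with a prior of 0.5 CPM in log2 differences. The intercept-only edgeR fit gave the coefficient of variation. Expected counts were not whole at 11.6% of values, no strand setting is described for the counting, and near-identical genes could share reads. DESeq2 1.42.0 gave alternative size factors. The steps were checked on simulated counts.

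The members and the 47 lists were chosen with earlier results of these data known. Named genes were the 30 most abundant, the 3 highest of each list and members at 3 counts or fewer (only some of which are named), and for each replicate and direction the 3 of at least 100 counts on average that differed most. 1 of the 30 is not reported here. Others are named where the text turns on them. No sequence is shown.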

Additional observations from a re-analysis of the deposited data

Results flagged for a closer look

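Signal outside the genes analysed was present in every WT replicate. The mitochondrial large ribosomal RNA, which was excluded, held a mean of 6.75% of expected counts. Identifiers that the later annotation did not match held a mean of 0.999%, and they were not named.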

How the results depend on the processing

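Only WT samples were analysed, so no paired analysis was possible because a single group gives no pairs, and no result has a test. The count of detected genes lay between 9738 and 10718 under all alternatives but the threshold of 5 TPM-like (8059). The share of the 10 most abundant genes was 13.4% with effective length and likewise 13.4% with the deposited TPM, and 7.45% without mitochondrially encoded genes. For the 100 most abundant these shares were 48.1, 48.1 and 38.6%. Effective length shortens short genes most, and 34 of 47 list sums then moved by over 1 SD, 29 of them downwards. With 3 replicates, leaving out 1 cannot move a mean sum by over 1 SD. It moved that of the digestive enzymes by over 1.5 times, to 709 TPM-like without replicate 3.

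For replicates 1, 2 and 3 in turn, counts of genes past both others, higher then lower, changed with the threshold. At 2-fold they were 45 and 54, 27 and 264, and 258 and 130. With a mean of at least 100 counts they were 38 and 11, 19 and 527, and 954 and 126. With no filter beyond 1 count they were 515 and 517, 474 and 1488, and 1898 and 634. The 10-fold counts, added after the data were seen, were 2 and 0, 2 and 3, and 29 and 6. Other scalings kept every count within 1.5 times. The coefficient of variation was 0.154 to 0.311 with a replicate left out. A replicate cannot be left out of the counts past both others. The promoter motif search and its alternative were not run, since no genome sequence was used here.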
